A study of Mus musculus with 8 samples.

Results

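In EpRas cells, 1274 chromatin regions were called as accessible in both libraries treated with transforming growth factor-β (TGF-β) and in neither untreated library, and were also called in at least 1 library of the parental EpH4 cells. These member regions were chosen by the FAIRE-seq peak calls of all 8 libraries, after the peaks of all lists that shared at least 1 bp had been merged into 37230 regions. A library was taken to call a region if at least 1 of its peaks overlapped it. The treated EpRas lists held 27337 and 16833 peaks, and the untreated ones 17210 and 13784. Members made up 44.8% of the 2843 EpRas gains, the regions called in both treated and neither untreated EpRas library. They were 5.43% of the 23482 regions that were called in at least 1 EpH4 library. The calls in EpRas libraries and the presence of at least 1 EpH4 call are therefore the rule itself, whereas the rule did not tell TGF-β-treated from untreated EpH4 libraries and used neither position nor sequence.

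EpH4 is a mouse mammary gland epithelial cell line, and EpRas is its derivative transformed with H-RasG12V, which carries active H-Ras. Each line was left untreated or cultured for 8 days with 1 ng/ml TGF-β3, with 2 biological replicates per group and 4 groups. EpH4 cells were grown in 10% and EpRas cells in 4% fetal bovine serum, so line, active Ras and serum cannot be told apart between the lines. Each genotype was represented by 1 line, and p-values measure only the spread between the 2 libraries of a group. The depth of the libraries was unknown, because the lists hold peaks and not reads. Among 10 epithelial marker genes, a peak lay within 2 kb of a transcription start site (TSS) for between 1 and 7 genes in a library. Keratin 14 (*Krt14*) was called in all 8 libraries, *Epcam* and *Krt5* in none, and the E-cadherin gene *Cdh1* in all 4 EpH4 and 0 of 4 EpRas libraries. Of 6 markers of other cell types, a library had at most 1 (*Cd68*, called in 3 EpRas libraries).

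FAIRE-seq recovers DNA that is not crosslinked to nucleosomes, and the recovered regions include promoters and distal enhancers. TGF-β signals through Smad proteins, which bind DNA weakly and act together with other factors such as AP-1, the family of Jun and Fos proteins, RUNX and ETS proteins. Ras signaling through the MAP kinase pathway increases the activity of AP-1 and ETS factors. Epithelial-mesenchymal transition (EMT) is the change by which epithelial cells lose junctions and acquire mesenchymal features.

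To show what the members look like, the central bases of high-scored members from 4 EpH4 call patterns are given, as the plus strand of the mouse genome (RefSeq GRCm38.p6, the build named mm10). Capitals mark matches to the AP-1 words TGACTCA or TGAGTCA and to the cAMP response element (CRE) word TGACGTCA. The regions downstream of *Spcs3* and upstream of *Gnas* were called in both TGF-β-treated EpH4 libraries and in neither untreated one. The region upstream of *P2rx7* was called in all 4 EpH4 libraries, the region upstream of *Cmbl* in both untreated libraries and neither treated one, and the last pair in 1 EpH4 library each. The printed bases of the regions near *Spcs3* and *Atp6v1g1* hold none of these words, although the latter region has TGACTCA outside them, at chr4:63521772-63521778.
Region downstream of *Spcs3*, chr8:54449888-54450187, plus strand: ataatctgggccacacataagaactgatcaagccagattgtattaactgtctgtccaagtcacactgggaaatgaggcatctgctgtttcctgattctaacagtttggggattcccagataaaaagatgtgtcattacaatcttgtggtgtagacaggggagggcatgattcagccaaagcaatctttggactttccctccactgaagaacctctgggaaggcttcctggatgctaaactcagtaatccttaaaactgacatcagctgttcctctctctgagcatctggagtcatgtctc
Region upstream of *Gnas*, chr2:174226742-174227041, plus strand: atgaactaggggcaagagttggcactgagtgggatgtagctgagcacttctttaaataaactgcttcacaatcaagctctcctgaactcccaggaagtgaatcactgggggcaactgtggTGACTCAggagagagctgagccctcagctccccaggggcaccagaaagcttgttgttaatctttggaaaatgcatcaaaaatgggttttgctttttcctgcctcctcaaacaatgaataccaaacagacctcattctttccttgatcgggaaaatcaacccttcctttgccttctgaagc
Region upstream of *P2rx7*, chr5:122636969-122637268, plus strand: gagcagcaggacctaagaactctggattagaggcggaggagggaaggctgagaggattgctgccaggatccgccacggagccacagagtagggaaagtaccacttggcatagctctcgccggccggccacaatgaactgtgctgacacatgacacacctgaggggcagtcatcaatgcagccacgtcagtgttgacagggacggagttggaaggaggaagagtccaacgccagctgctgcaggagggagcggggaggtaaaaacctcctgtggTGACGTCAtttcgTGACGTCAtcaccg
Region upstream of *Cmbl*, chr15:31561421-31561720, plus strand: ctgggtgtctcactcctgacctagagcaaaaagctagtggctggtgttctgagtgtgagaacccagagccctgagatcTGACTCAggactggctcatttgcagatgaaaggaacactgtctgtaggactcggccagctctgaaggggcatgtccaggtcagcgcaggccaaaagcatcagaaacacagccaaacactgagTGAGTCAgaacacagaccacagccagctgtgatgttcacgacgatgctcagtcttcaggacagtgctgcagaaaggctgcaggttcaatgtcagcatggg
Region in an intron of *Slc24a2*, chr4:87047221-87047520, plus strand: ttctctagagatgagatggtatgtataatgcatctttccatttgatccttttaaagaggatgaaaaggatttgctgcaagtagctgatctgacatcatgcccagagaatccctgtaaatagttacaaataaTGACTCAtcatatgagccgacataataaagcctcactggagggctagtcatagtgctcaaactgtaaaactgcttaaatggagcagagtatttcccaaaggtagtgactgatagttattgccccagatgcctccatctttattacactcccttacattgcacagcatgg
Region upstream of *Atp6v1g1*, chr4:63521952-63522251, plus strand: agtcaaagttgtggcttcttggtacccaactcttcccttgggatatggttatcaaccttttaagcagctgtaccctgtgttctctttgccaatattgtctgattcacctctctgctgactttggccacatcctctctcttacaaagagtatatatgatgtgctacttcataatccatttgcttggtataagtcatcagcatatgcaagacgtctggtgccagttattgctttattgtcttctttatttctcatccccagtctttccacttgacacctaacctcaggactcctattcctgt

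The member regions were called less evenly across the EpH4 libraries than other EpH4 regions. Of the members, 508 (39.9%) were called in the first and 505 (39.6%) in the second untreated EpH4 library, 969 (76.1%) in the first and 504 (39.6%) in the second TGF-β-treated EpH4 library. The corresponding shares of all regions with an EpH4 call were 52.8%, 55.5%, 76.1% and 45.8%. Members thus fell below this background in 3 libraries and equaled it in the first TGF-β-treated library, whose list was the longest of the 4 (17927 peaks, against 12462, 13092 and 10821).

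Most members were seen in few EpH4 libraries. A single library called 570 members (44.7%, Wilson 95% interval 42 to 47.5), against 37.2% of all regions with an EpH4 call. The first TGF-β-treated library alone called 340 of the 570 (26.7% of members, background 19%). It also called 4458 of the 8724 background regions with a call in 1 library. All 4 libraries called 146 members (11.5%, 9.83 to 13.3), against 25.3% of the background. Both TGF-β-treated libraries and neither untreated one called 119 members (9.34%, 7.86 to 11.1), where the background was 5.18%. The opposite pattern, both untreated libraries and neither treated one, held 27 members (2.12%, 1.46 to 3.07), and its background was 2.67%. The EpRas losses called in EpH4, which mirror the members, were called in both untreated and neither treated EpRas library. In that set these 2 patterns held 11 (6.21%) and 7 (3.95%) of 177 regions. With lists of equal length (the 10821 highest-scored peaks of each library) the 2 patterns held 61 and 19 of 537 members, where the backgrounds were 4.58% and 4.19%. Counting any call, 516 members (40.5%) were called in treated EpH4 libraries only, 200 (15.7%) in untreated libraries only and 558 (43.8%) in both kinds, where the background shares were 28.2%, 16.8% and 55.0%.

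**Figure D1:**
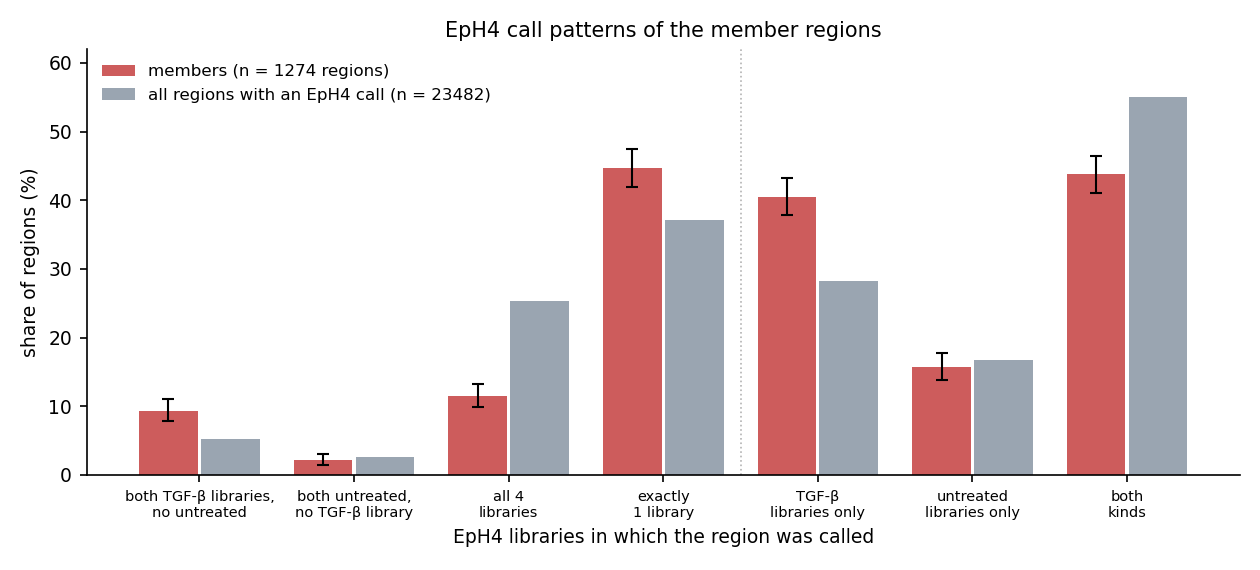
Share of the 1274 member regions (red, with Wilson 95% intervals for counting error) and of all 23482 regions with an EpH4 call (grey) by the EpH4 libraries that called them; the left 4 patterns and the right 3 classes are separate groupings. Members lie above the background for both TGF-β-treated libraries without an untreated call (9.34% against 5.18%) and below it for all 4 libraries (11.5% against 25.3%).

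Replicates overlapped less at the members than elsewhere. The untreated EpH4 libraries shared 255 members, which were 50.2% of the members in the first and 50.5% of those in the second, whereas over all EpH4 regions the shared regions were 69.1% and 65.8% of the 2 lists. The treated libraries shared 399 members, 41.2% of those in the first and 79.2% of those in the second library, against 50.9% and 84.5% over all EpH4 regions. The difference between members and other regions was therefore smaller in treated than in untreated libraries by these shares, and was not tested.

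The comparison of treated with untreated EpH4 cells asked whether regions gained in EpRas cells also took a larger part of the accessible chromatin of the parental cells under TGF-β. Members made up 4.09% and 3.87% of the regions called in the untreated EpH4 libraries, and 5.42% and 4.68% of those in the TGF-β-treated EpH4 libraries. Both treated libraries lay above both untreated ones. The means were 3.98% ± 0.155 and 5.05% ± 0.524 (SD, n = 2 each), a difference of 1.07 percentage points (p = 0.333 by a two-sided exact permutation test). No smaller p can be had with 2 against 2 libraries, so the test could not pass 0.05. The mirror set of EpRas losses made up 0.62% and 0.714% of the untreated and 0.66% and 0.52% of the treated libraries, with overlapping groups (exact permutation test, p = 0.667).

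The difference was smaller in lists of equal length, where the rule also gave fewer members. With the 10821 highest-scored peaks of every library, the rule gave 537 members, which made up 2.65% and 2.43% of the untreated and 3.16% and 3.13% of the treated EpH4 libraries, and the difference was 0.604 percentage points (exact permutation test, p = 0.333). It was 0.697 without the first TGF-β-treated EpH4 library and 2.07 without the second TGF-β-treated EpRas library, and the mean of the treated libraries was higher in all 14 alternatives tried.

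**Figure D2:**
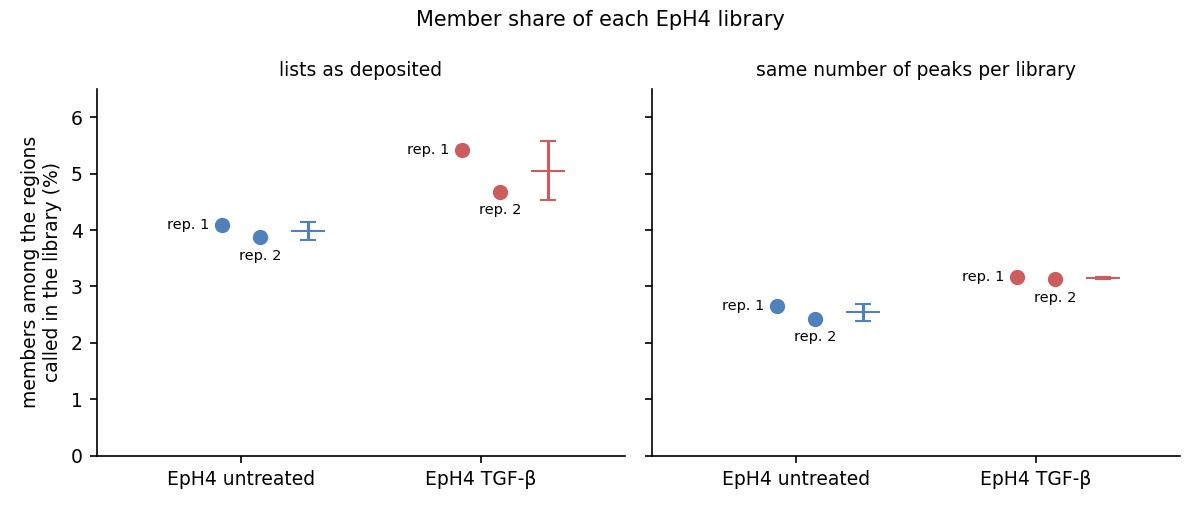
Member regions as a percentage of the regions called in each EpH4 library (points, with mean and SD beside them, n = 2), for the lists as deposited and for lists of equal length in which the rule was applied anew. Both TGF-β-treated libraries lie above both untreated libraries in both panels.

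Membership itself was sensitive to list length. Only 239 members (18.8%) had a peak among the 10821 highest-scored peaks of both TGF-β-treated EpRas lists, and 188 (14.8%) remained members in lists of equal length. These 188 were 35% of the 537 members found there.

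Among the 119 members called in both treated EpH4 libraries and in neither untreated one, the highest-scored region lay between genes at chr8:54449860-54450216, 80 kb downstream of the TSS of *Spcs3*, a subunit of the signal peptidase complex. Its score percentile, the rank of a peak's score within its own list with 100 as the highest, was 79.6 and 83.3 in the treated EpH4 libraries and 88.2 and 74.7 in the treated EpRas libraries. The second lay at chr2:174226716-174227068, 57.4 kb upstream of *Gnas*, the stimulatory G protein α subunit, and had percentiles of 77 and 87.2 in treated EpH4 and 68.1 and 81.2 in treated EpRas libraries. Such values were the reason for naming these regions, which had the highest mean percentiles over the 4 treated lists. The pattern and the rule fix that no untreated list called them. The third, at chr15:103378278-103378729, lay 11.7 kb upstream of *Itga5*, the α5 integrin subunit of the fibronectin receptor, and 0.432 kb from the start of the transcript *Gm37322*, with percentiles of 82.8 and 82 in treated EpH4 and 68.4 and 76.8 in treated EpRas libraries. The other 3 named regions of this pattern lay 23.6 kb downstream of *Klhl36*, 10.2 kb upstream of *Hacd4*, an enzyme of fatty acid elongation, and in *Nckap5*, with mean percentiles of 77.4, 77.3 and 74.6. An AP-1 word lay inside 3 of these 6 regions (*Gnas*, *Hacd4* and *Nckap5*).

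Of the 146 members called in all 4 EpH4 libraries, the highest-scored was a promoter region, chr5:117119825-117120199, 0.117 kb upstream of a TSS of *Taok3*, a kinase that acts on MAP kinase pathways. It had percentiles of 93.2 and 94.3 in untreated and 98.2 and 95.6 in treated EpH4 libraries, and 83.6 and 93 in treated EpRas libraries. The region upstream of *P2rx7*, an ATP-gated ion channel, lay 6.79 kb from its TSS (chr5:122636920-122637318) and holds the CRE word at 2 places, 122637242-122637249 and 122637255-122637262. Its percentiles were 98.5 and 98.5 in untreated EpH4, 86.7 and 96.6 in treated EpH4, and 82.6 and 46.4 in treated EpRas libraries. These 2 regions were named for high mean percentiles, and the rule fixes the lack of a call in both untreated EpRas libraries. The region in an intron of *Rpia*, a pentose phosphate pathway enzyme, had percentiles of 96.5, 99, 97.1 and 87 in the 4 EpH4 libraries and only 58.1 and 12.9 in the treated EpRas libraries. The remaining named regions of this pattern lay in introns of *Uqcc1*, an assembly factor of respiratory complex III, and *Basp1*, and 52.8 kb upstream of *Flt1*, a receptor of vascular endothelial growth factor.

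Both untreated EpH4 libraries and neither treated one called 27 members (2.12%, against 2.67% of all regions with an EpH4 call). That their calls differ in direction between the 2 lines is fixed by this pattern and the rule. The first named, at chr15:31561410-31561733 and 7.23 kb upstream of *Cmbl*, a hydrolase, had percentiles of 61.6 and 55.1 in untreated EpH4 and 90.5 and 86.7 in treated EpRas libraries, and holds 2 AP-1 words. Promoter regions of *Sdhc*, a subunit of succinate dehydrogenase, and *Vps11*, a subunit of endosomal tethering complexes, followed, 0.016 kb and 0.053 kb from their TSSs. The *Sdhc* region had percentiles of 57.6 and 75.3 in untreated EpH4 and 66.6 and 54 in treated EpRas libraries. Those of the *Vps11* region were 87.7 and 60.5, then 38.7 and 59.5. The other named regions lay near *Acot13*, *Fbxl15*, which encodes a subunit of a ubiquitin ligase for the TGF-β regulator Smurf1, and *Ddx47*, and had mean percentiles of 57.9, 57.9 and 51.4.

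Among the 570 members called in 1 EpH4 library, the highest-scored of all named regions lay in an intron of *Slc24a2*, a sodium-calcium exchanger (chr4:87047192-87047550), with percentiles of 90.4 in the first treated EpH4 library and 99 and 96 in the treated EpRas libraries. A 683-bp region 22.7 kb upstream of *Atp6v1g1*, a subunit of the vacuolar proton pump, had a percentile of 71.4 in the same EpH4 library and 83.6 and 92.4 in the treated EpRas libraries. For the region in *Mical2*, an enzyme that oxidizes actin, the values were 35.1, 91.5 and 93.8. These 3 regions, named for high mean percentiles that include both treated EpRas lists, were called in the longest EpH4 list only. The promoter region of *Slc43a2*, an amino acid transporter, was called in the second treated EpH4 library alone (82.3), and the region in *Dnah2*, an axonemal dynein, in the second untreated library alone (77.9).

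Most members were of modest score. The median percentile was 39.4 and 36.1 in the untreated and 39.7 and 39.7 in the treated EpH4 libraries, over the members that each called. Between 2.38% and 3.94% of them reached percentile 90 of an EpH4 list. In the EpRas libraries that the rule used, the medians were 48 and 32.9, given as description. Regions just outside the rule framed these values. The 2452 EpH4 regions with a call in 1 untreated EpRas library besides both treated ones had medians of 61.1 and 46.4 in the treated EpRas libraries, the 7982 with a call in all 4 EpRas libraries 81.9 and 69.7, and the 2421 called in 1 treated EpRas library only 29.5 or 22.7. The nearest peak of an untreated EpRas library lay at a median distance of 18.1 kb from a member (quartiles 5.24 and 54.4). Such a peak lay within 1 kb of 126 members (9.89%). For EpRas gains without an EpH4 call the median was 25 kb, and 104 (6.63%) had one within 1 kb.

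**Figure D3:**
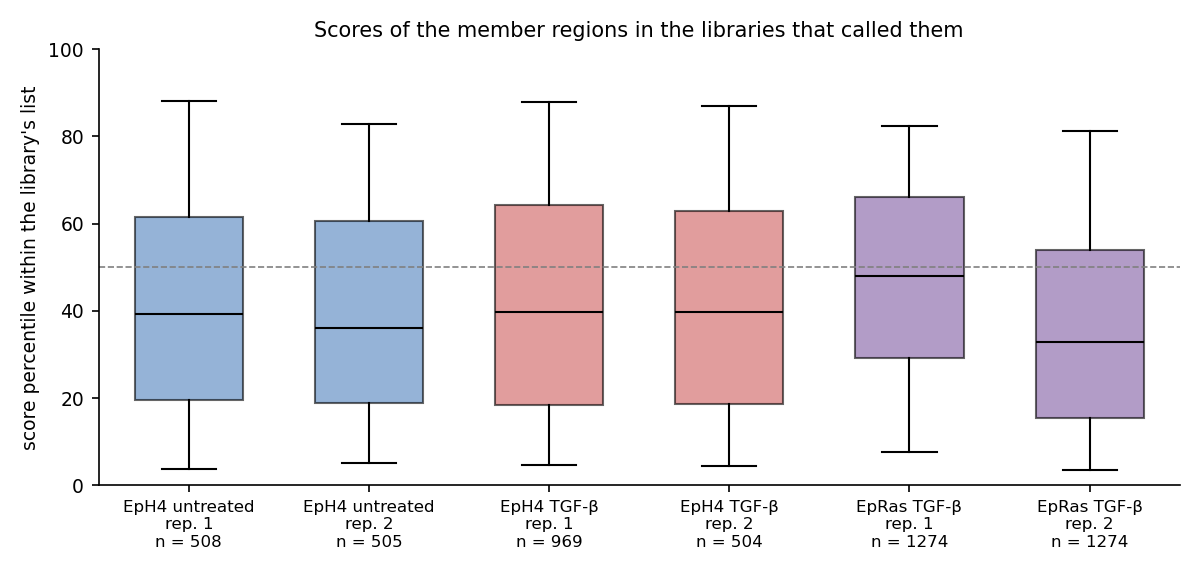
Percentiles of the authors' score within each library's own list for the member regions called there (box: quartiles and median; whiskers: 5th to 95th percentile; n below each box; dashed line: middle of a list). The EpH4 medians lie between 36.1 and 39.7, all below the middle of the lists.

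The 146 members called in all 4 EpH4 libraries allowed the same regions to be compared in every EpH4 library. Their median percentile was 45 and 46.3 in the untreated and 64.4 and 46.8 in the treated libraries, a difference of 9.95 percentile points (p = 0.333 by the same exact permutation test), with treated libraries above untreated ones. Without the first treated library the difference was 0.94 points, so that it rested on this library. All 5931 regions called in the 4 libraries had higher medians of 67.9, 68.7, 76.9 and 63.7, and relative to these the members stood at −22.8 and −22.4 in untreated and −12.5 and −16.9 in treated libraries (exact permutation test, p = 0.333). Single members did not share 1 direction, since 31 of 146 (21.2%) had both treated above both untreated percentiles and 18 (12.3%) the reverse. Over all 5931 regions these shares were 18.7% and 14.4%.

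Member regions lay mainly away from promoters. Promoter regions, with the midpoint within 2 kb of a TSS, were 286 of 1274 members (22.4%, Wilson 95% interval 20.2 to 24.8), introns 490 (38.5%, 35.8 to 41.2) and intergenic sequence 470 (36.9%, 34.3 to 39.6). The promoter share was higher than in the 1569 EpRas gains called in no EpH4 library (14%, 12.3 to 15.8). It was lower than in all merged regions (31.7%, 31.2 to 32.2), in regions with an EpH4 call (36.9%), in the 177 mirror losses (37.3%, 30.5 to 44.6) and in the 4259 regions called in all 8 libraries (49.7%, 48.2 to 51.2). These intervals cover counting error within the lists only. By EpH4 pattern, the promoter share was 18% (14.9 to 21.6) in members called in treated libraries only, 27.5% (21.8 to 34.1) in untreated libraries only and 24.7% (21.3 to 28.5) in both kinds. Of the 516 members called in treated libraries only, 340 were called in the first treated library alone, the longest EpH4 list. Promoter shares of all EpH4-called regions by pattern were not computed, so these shares cannot be read as particular to members.

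**Figure D4:**
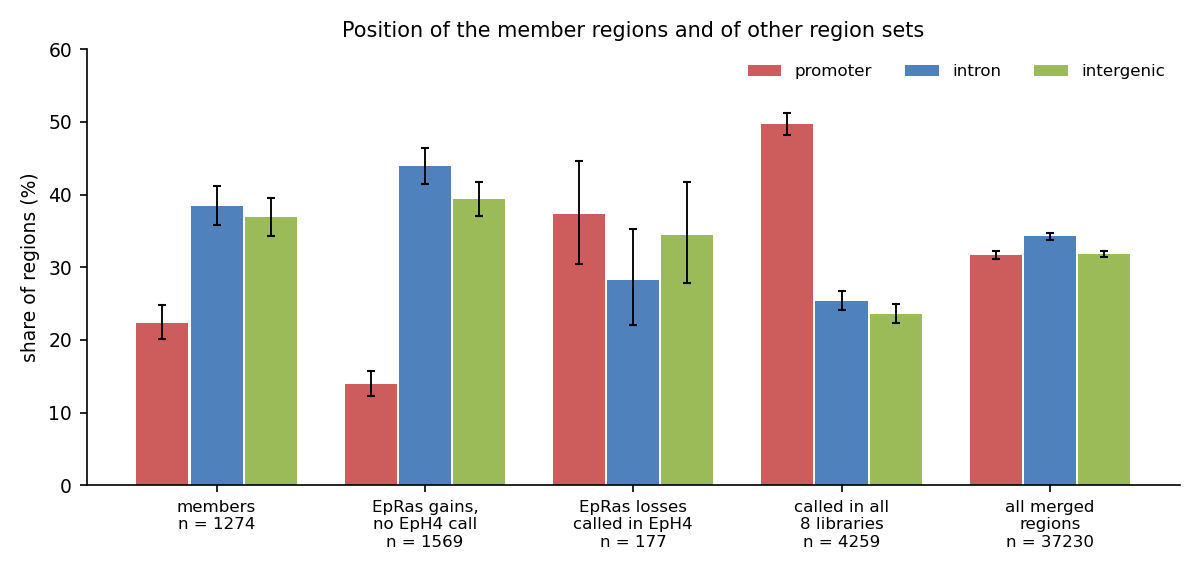
Share of regions in promoters (midpoint within 2 kb of a TSS), introns and intergenic sequence for the members and 4 other region sets, with Wilson 95% intervals; small exon classes are left out. The members hold 22.4% promoter regions, between EpRas gains without an EpH4 call (14%) and all merged regions (31.7%).

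The median distance of a member to the nearest TSS was 10.5 kb, against 14 kb for EpRas gains without an EpH4 call and 2.13 kb for regions called in all 8 libraries. Of the members, 493 (38.7%) lay 10 to 50 kb and 160 (12.6%) more than 50 kb from a TSS. The median ratio of observed to expected CpG in member promoters was 0.575, between 0.321 in promoters among the gains without an EpH4 call and 0.697 in all promoter regions, and was 0.776 in promoters called in all 8 libraries. Members were 309 bp wide at the median, and regions called in all 8 libraries 418 bp.

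AP-1 words were the most frequent of the 10 motifs sought in distal members. In the 500 bp around the midpoint, TGACTCA or TGAGTCA occurred on either strand in 553 of 988 distal members (56%, Wilson 95% interval 52.9 to 59), compared with 46.7% of all distal merged regions and 7.93% of control windows 10 kb downstream of the members. The share was 59% (56.3 to 61.6) in distal gains without an EpH4 call and 57.5% (55.4 to 59.6) in distal regions called in all 8 libraries, whose intervals overlap that of the members. In the 111 distal mirror losses it was 27.9% (20.4 to 36.9). Within the members it was 59.3% (54.6 to 63.9) for those called in treated EpH4 libraries only, 53.1% (45 to 61) in untreated libraries only and 53.6% (48.8 to 58.3) in both kinds, with overlapping intervals.

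The AP-1 words sat near the midpoint of the members. In 405 of the 553 members with a word (73.2%), the nearest one lay within 50 bp of the midpoint, against 68.6% in all distal regions and 59.1% in those called in all 8 libraries. The share was 74.1% in gains without an EpH4 call and 71% in the mirror losses, close to that of the members. More than 1 word occurred in 135 distal members, of which 120 (12.1%) had 2 and 15 (1.52%) had 3 or more. These shares were 8.62% and 1.12% in all distal regions and 11.4% and 1.48% in gains without an EpH4 call. They were higher, 15.6% and 3.03%, in regions called in all 8 libraries. Both an AP-1 and a RUNX word were found in 104 distal members (10.5%), 7.85% of all distal regions, 9.48% of gains without an EpH4 call and 11.8% of regions called in all 8 libraries.

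Other factor families were sought by fixed words on both strands. The RUNX word TGTGGTT occurred in 21.4% of distal members (18.9 to 24), 17.9% of all distal regions and 11.5% of the control windows, and its share was 21.2% in regions called in all 8 libraries and 20.7% in the mirror losses. The TEAD word GGAATG, which binds the partners of Yap and Taz, occurred in 37% (34.1 to 40.1), 34.1% and 27.1%, and was more frequent in regions called in all 8 libraries (41.7%) and in the mirror losses (45.9%). The E-box CAGGTG, bound by the EMT repressors of the Zeb and Snail families, occurred in 29.6% (26.8 to 32.5) of distal members, 29.2% of all distal regions and 31.1% of controls. Within the 98 distal members called in both treated and neither untreated EpH4 library the E-box share was 15.3% (9.5 to 23.7, controls 28.6%), against 34.2% (26.3 to 43, controls 35.3%) of the 120 called in all 4. The 19 called in both untreated and neither treated library had 31.6% (15.4 to 54), which overlapped both intervals. This pair was picked after the shares of 10 motifs in 7 EpH4 patterns had been seen, and the difference was not tested.

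ETS words (CCGGAA or ACGGAA followed by A or G) were found in 7.19% of distal members (5.74 to 8.97), below the 10.1% (8.65 to 11.9) of gains without an EpH4 call and the 9.08% (8.73 to 9.44) of all distal regions. Both intervals overlapped that of the members. The CRE word occurred in 12 distal members (1.21%, 0.696 to 2.11), in 0.692% of all distal regions and in 0.104% of controls. The palindromic Smad word GTCTAGAC was found in 6 distal members (0.607%) and in 0.523% of all distal regions, and the GRHL word AACCGGTT in 2 (0.202%) and in 0.197%. The CEBP words TTACGCAA or TTGCGCAA and the NF1 consensus were found in 0 distal members (Wilson upper bound 0.387%), where all distal regions had 0.417% and 0.0826%. Matches of different words could overlap and were counted separately.

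**Figure D5:**
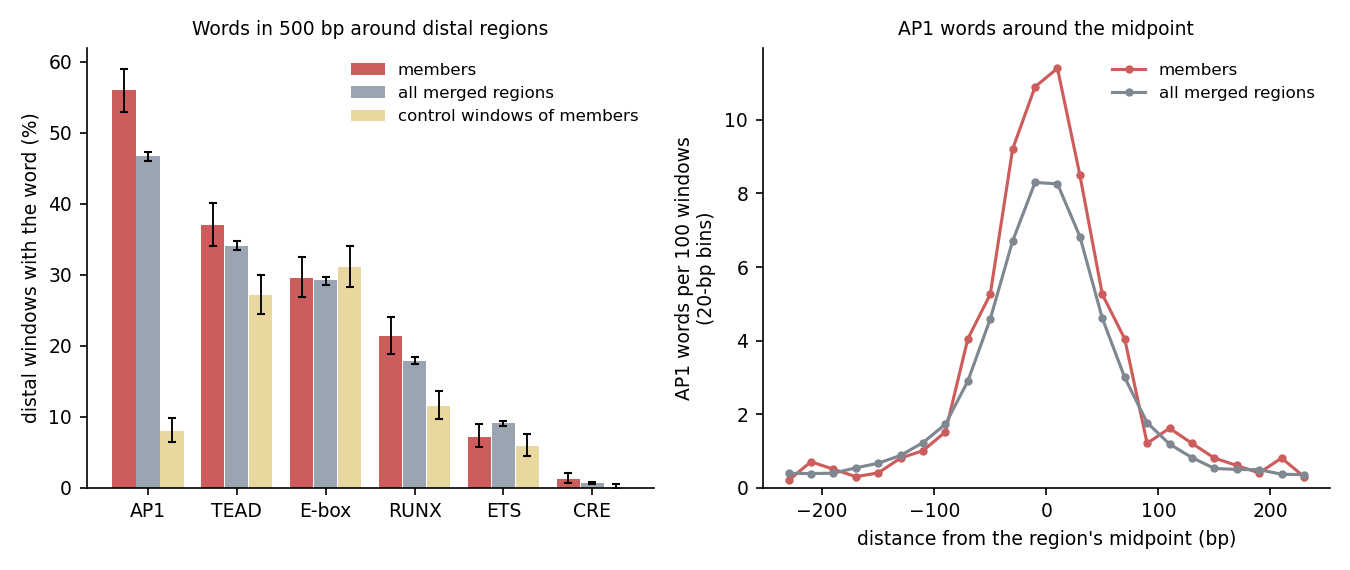
Left, share of 500-bp windows around distal regions that hold a fixed word, for members, all merged regions and the members' control windows 10 kb downstream (Wilson 95% intervals). Right, AP-1 words per 100 windows in 20-bp bins of the distance from the region's midpoint, where the members reach 11.4 and all distal regions 8.3.

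Genes known in EMT and its signaling pathways were examined in 10 lists with 227 distinct genes, each with 20 kb on either side of the gene. Members lay at 35 of these genes (40 members), against 5.75% of all protein-coding genes. The list genes were longer (median 31.3 kb, against 17.4 kb). Members were 5.47% of the EpH4-called regions at list genes, 4.25% at all protein-coding genes and 5.43% of all EpH4-called regions. The share at all protein-coding genes counted a region once for each gene near it, whereas the 5.43% counted each region once. By list, members ranged from 1.33% (Ras and MAPK signaling) to 12.5% (ETS factors, 5 of 40 regions) of the EpH4-called regions. The share was 8.91% at junction and keratin genes, 8.26% at mesenchymal and matrix genes and 3.7% at genes of TGF-β signaling. The following genes are therefore a description of where members lay.

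Of 33 genes of TGF-β signaling, 4 held a member. *Smurf1*, a ubiquitin ligase that targets Smads and TGF-β receptors, had one in an intron, 19.6 kb from its start, called in all 4 EpH4 libraries with percentiles of 25.8 and 7.92 untreated and 41.8 and 42.5 treated, and 10.2 and 63.5 in treated EpRas libraries. Both treated EpH4 values were above both untreated ones. Of all regions called in the 4 EpH4 libraries, 18.7% showed this order, and of such members 21.2%. *Pmepa1*, an inhibitor of Smad signaling, had a member 14.8 kb into the gene with 12.7 in the second untreated, 38.9 and 6.39 in the treated EpH4 libraries, and 27.8 and 14.2 in treated EpRas libraries. *Ldlrad4*, a relative of *Pmepa1*, and *Ltbp1*, which binds latent TGF-β, held 1 member each, and the latter was called in 1 EpH4 library, untreated, at 14.3.

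Epithelial junction and keratin genes held 9 members at 7 of 30 genes. Both members at *Cldn4*, a claudin of tight junctions, lay upstream of the gene. The nearer (8.73 kb) was called in all 4 EpH4 libraries with 17.4, 48.1, 16.6 and 11.2, and the farther (12.4 kb), with 2 AP-1 words, in 3 with 77.6 and 76.2 untreated and 74.6 in the first treated library. Thus *Cldn4* members were accessible in EpH4 cells with and without TGF-β. Members in the desmosomal genes *Pkp2* and *Pkp3* differed in pattern. The *Pkp2* member was called in the treated EpH4 libraries (65.9 and 63.8) and in neither untreated one, and the *Pkp3* promoter member in the first untreated library only (49.2). Single members also lay at *Ctnnd1*, the p120 catenin of adherens junctions, upstream of *Esrp2*, an epithelial splicing factor, and past the end of the desmoplakin gene *Dsp*, where the region was the promoter of *Snrnp48*.

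Mesenchymal and matrix genes held 9 members at 9 of 40 genes. A member lay 9.41 kb upstream of the annotated gene start of *Mmp9*, a gelatinase, and 16.8 kb upstream of its nearest TSS. Like the *Itga5* region, it was called in both treated EpH4 libraries (84.1 and 27.5) and in neither untreated one. Its percentiles in treated EpRas libraries were 66 and 3.46. An intronic member of *Itgb6*, the β6 integrin subunit of a receptor that activates latent TGF-β, had 53 in the second untreated and 23.5 in the first treated EpH4 library, and 83.3 and 65.1 in treated EpRas libraries. The *Itga5* and *Mmp9* members thus had the same EpH4 pattern, and the *Itgb6* member was also seen without TGF-β. Members at *Col4a2* (collagen IV), *Tnc* (tenascin C), *Itga2* (α2 integrin), *Ccn2* (connective tissue growth factor) and *Lama3* (laminin α3) were each called in the first treated EpH4 library alone, at 59.1, 4.69, 31.7, 35.1 and 12.7.

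Genes of the actin cytoskeleton and adhesion held 6 members at 5 of 24 genes. The member in *Tns1*, which links integrins to actin, was called in both treated EpH4 libraries (65.7 and 25.6) and in neither untreated one, while that upstream of the small GTPase gene *Rhob* was called in both untreated libraries (11.5 and 29) and in neither treated one. In *Actn1*, which encodes the actin crosslinker α-actinin, the member was called in all 4 with 84, 6.46, 9.83 and 8.86. The remaining members lay in *Svil*, which had 2, and *Lpp*.

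Among transcription factor genes, *Etv6*, an ETS-family repressor, held 3 intronic members, more than any other list gene. *Etv6* spans 234 kb, where the median list gene spans 31.3 kb, and 8 regions lay at its locus. Of its 3 members, 2 were called in both treated EpH4 libraries and in neither untreated one. Their percentiles there were 94.2 and 25.6 for the first and 38.8 and 15.2 for the second. The third, with an AP-1 word, was called in both untreated (41.6 and 18.9) and the first treated EpH4 library (39.6). Other ETS genes with a member were *Elk1*, at its promoter, and *Elk4*, making 3 of 21. AP-1 family genes had 2 of 12 (*Jun* and *Mafk*) and RUNX genes 1 of 4 (*Runx2*, 160 kb into the gene). Of 17 EMT transcription factor genes only *Grhl2*, a keeper of epithelial identity, held one, called in the second untreated (4.1) and first treated (45.9) EpH4 library. Hippo and TEAD genes had 3 of 17 (*Ajuba*, *Amotl1* and *Ccn2*), and genes of Ras and MAPK signaling 1 of 31 (*Ier3*, where the region was the promoter of *Tubb5*).

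Over all protein-coding genes, few held several members. The 8 members at *Gm20388* lay in a gene model that spans 4435 kb and covers many other genes. *Susd1*, *Clasp1*, *Dlgap2* and *Tg* held 4 each. *Clasp1* encodes a protein that stabilizes microtubule plus ends, and 4 of the 8 regions at its locus were members, of which 1 lay at its own TSS and another at that of the transcript *2900060B14Rik* inside it. The member at its own TSS (0.142 kb upstream) had percentiles of 24.1 in the first untreated and 72.4 in the first treated EpH4 library. At *Tg*, the thyroglobulin gene, 4 of 7 regions were members, of which 3 also lie within 20 kb of *Sla*, an adaptor protein gene inside it. *Sept9*, *Slc43a2*, *Sugct*, *Vgll4*, a cofactor that competes with Yap for TEAD, *Etv6* and *Pik3c2a* held 3 each.

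Chromosome 13 held 105 members (8.24%, Wilson 95% interval 6.85 to 9.88), against 5.59% of the regions with an EpH4 call. Chromosome 6 held 90 (7.06%, 5.78 to 8.6), and the share of regions with an EpH4 call there, 6.35%, lay inside this interval. The chromosomes were picked after their values were seen, and no difference was tested.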

How the data were processed

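FAIRE-seq peak lists of 8 libraries were used, 2 for each of 4 groups taken from the labels. The authors mapped Ion Proton reads to mm10 with Bowtie2 and called peaks per library with MACS2 (version 2.0.9). Each deposited list gave a score whose meaning was not stated, so it served only as a percentile within its list. No reads or coverage were used, so depth was unknown, and a longer list can come from a deeper library. Lists held 10821 to 27337 peaks.

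Peaks sharing at least 1 bp were merged (pandas 2.3.3). Shares carry Wilson 95% intervals (scipy). The sequence was RefSeq GRCm38.p6 and the genes GENCODE vM21 (basic set). Control windows lay 10 kb downstream, touched no region and held at most 50% undetermined bases. Alternatives were lists of equal length, a stricter score, 50% coverage, merging within 100 bp, a 1 kb promoter, a 200-bp motif window, 50 kb loci and leaving out each library. Code was tested on simulated lists.

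Members, gene lists and alternatives were chosen with earlier results of these data known. Named were the 6 members with the highest mean percentile in each of 4 EpH4 patterns, up to 30 list genes with a member, ordered by number of members and mean percentile, and the 10 genes holding most members (12 with ties). *Ldlrad4*, *Ltbp1*, *Jun* and *Ajuba* fell outside this rule and were named after their values were seen, as were chromosomes. Some list genes with a member are not reported here. Sequences of the first 2 regions of each pattern were printed unless they touched an untranslated region.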

Additional observations from a re-analysis of the deposited data

How the results depend on the processing

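The mean member share was larger in treated EpH4 libraries in all 14 alternatives. The difference was 0.697 to 2.07 percentage points when 1 library was left out and 0.604 in lists of equal length. The value of 2.07 came with 3382 members, without the second treated EpRas library. As a share of all members the difference was 18.1, which rested on the first treated library (76.1%), since the second (39.6%) was not above the untreated ones (39.9% and 39.6%; exact permutation test, p = 1). The percentile difference was positive in all 7 alternatives and 0.94 to 14.7 with 1 library left out. No p-value was below 0.333. With the replicate number as a block these differences stayed at 1.07 percentage points and 9.95 percentile points (exact sign flips, p = 0.5, the smallest possible for 2 pairs), and changed no call. A block leaves the mean difference unchanged by construction, so its direction among the 14 and the 7 alternatives was fixed. The replicate numbers were not shown to pair libraries (correlation of replicate differences over 5931 regions 0.0169). The number of members was 537 in lists of equal length and ranged from 934 to 3382 with 1 library left out, reaching 2942 and 2060 without the first and second untreated EpRas library and 3382 without the second treated EpRas library, because the rule then asks for fewer libraries. The promoter share was 26.8% with a stricter score, 17.3% within 1 kb of a TSS and 21.7% to 30.8% with 1 library left out. The AP-1 share was 61.3% in lists of equal length, 51% in 200-bp windows and 49.9% to 57% with 1 library left out. Members called in both treated and neither untreated EpH4 library numbered 61 in lists of equal length, an alternative chosen after seeing the data, and the background of the opposite pattern was then 4.19%. Depth was unknown, so a region without a call may be accessible below the authors' limit.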

Other observations

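Of the members, 107 (8.4%) had another within 20 kb, close to the 9.24% of EpRas gains without an EpH4 call. The single group of 3 members spaced within 20 kb of one another lay between genes on chromosome 11 (19835171 to 19849854), 74.7 to 89.1 kb upstream of *Spred2*, an inhibitor of Ras-MAP kinase signaling, and was picked after its values were seen. Each of the 3 held at least 1 AP-1 word and was called in 2 EpH4 libraries. Score percentiles were 33.3 in the first untreated and 43 in the first treated EpH4 library for the first region, 49.8 in the second untreated and 59.2 in the second treated library for the next, and 26.3 and 75.6 in the treated libraries for the last. In treated EpRas libraries they ranged from 26.3 to 67.1.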
